A study of Homo sapiens with 6 samples.

Results

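The 10 genes described here encode the main chaperones of the cytosol, and they were taken as the rows of the deposited tables whose gene symbol was HSPA1A, HSPA1B, HSPA8, HSPA4, HSPH1, HSP90AA1, HSP90AB1, DNAJB1, HSPB1 or BAG3. All 10 were found in the count table of 31369 genes and in the FPKM table of 30896 genes, and all 10 were among the 15878 genes that passed the filter on low counts. The RNA came from HK-2, an immortalized line grown from the epithelium of the human proximal tubule. There were 3 samples of control cells (NC, genotype label WT) and 3 samples of cells that received a *PPM1K* plasmid by lipid transfection (OE, genotype label PPM1K overexpress). All 6 samples carry the treatment label chronic kidney disease and the time label day 10. The titles name shControl and shPPM1K, which goes against the genotype labels. The groups follow the genotype labels, and *PPM1K* itself was higher in the samples labelled as overexpressing. What plasmid, if any, the control cells received is not given in the sources used here. The cells are 1 line, plasmid was not measured cell by cell, and nothing states that the 3 samples of a group came from separate cultures. The p-values therefore measure the spread between these samples, which may be technical. In such bulk samples, fewer cells of a kind and less RNA per cell cannot be told apart.

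Chaperones bind proteins that are not yet folded or have lost their fold. HSP70 proteins hold short stretches of a client in an ATP-driven cycle, J-domain proteins such as DNAJB1 start that cycle, and exchange factors such as HSPH1, HSPA4 and BAG3 end it by releasing ADP. HSP90 proteins take clients at a later stage, many of them kinases and steroid receptors, and small heat shock proteins such as HSPB1 hold denatured clients without ATP. Many of these genes are driven by heat shock factor 1, HSF1, which binds repeats of a short element in their promoters. The kidney tubule is a classical site of this response, since proximal tubule cells make HSP70 and HSPB1 after loss of blood flow.

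The heat shock element is built of inverted GAA units. Stretches that hold it are shown for the members in which a match was found. The search was for GAANNTTC or TTCNNGAA, each of which reads the same on both strands, in windows of 300 bases from 250 before a RefSeq start site (GRCh38.p14). Each member had at least 1 such window, 15 in all. A match was present in 8 of these 15 windows, which belong to 7 of the 10 members, and in 13.5% of all 35116 windows. A run of 3 units, GAANNTTCNNGAA or TTCNNGAANNTTC, which contains the shorter motif, was present in 3 of the 15 windows, each of a different member, and in 0.490% of all windows. The units are in capitals below, with 15 bases on each side, read in the direction of transcription.
HSPA1A: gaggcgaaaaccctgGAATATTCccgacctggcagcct
HSPA1B: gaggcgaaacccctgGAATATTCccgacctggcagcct
HSPA8, near: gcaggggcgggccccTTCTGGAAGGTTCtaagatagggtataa
HSPA8, far: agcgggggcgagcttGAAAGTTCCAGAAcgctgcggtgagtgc
HSP90AA1: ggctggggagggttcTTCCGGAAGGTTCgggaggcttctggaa
HSP90AB1, first: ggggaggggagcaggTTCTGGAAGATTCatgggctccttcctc
HSP90AB1, second: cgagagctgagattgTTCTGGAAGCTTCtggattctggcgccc
DNAJB1, far: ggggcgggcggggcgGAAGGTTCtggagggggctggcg
DNAJB1, near: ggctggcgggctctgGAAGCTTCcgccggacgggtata
HSPB1: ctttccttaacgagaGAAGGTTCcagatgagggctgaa

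Counted from a start site at 0, the capitals begin at −106 for HSPA1A (chr6:31815422-31815459, plus strand) and at −105 for HSPA1B (chr6:31827618-31827655, plus strand). They begin at −55 and −230 for HSPA8 (chr11:123062164-123062206 and chr11:123062339-123062381, minus strand). They begin at −88 for HSP90AA1 (chr14:102087105-102087147, minus strand), where a further match of 2 units follows at −68. For DNAJB1 they begin at −77 and −47 (chr19:14518452-14518489 and chr19:14518422-14518459, minus strand). For HSPB1 they begin at −182 (chr7:76302476-76302513, plus strand). All of these stretches lie before the main transcript of the gene. A further DNAJB1 match, not printed here (chr19:14517914-14517951 with its flanks, minus strand), lies in intron 1 of its main transcript, from position 1 of a start site 460 bases further into the gene. Both HSP90AB1 stretches (chr6:44247763-44247805 and chr6:44247816-44247858, plus strand) also lie in intron 1 of the main transcript, before a start site 842 bases further into the gene. No match was found in the windows of HSPA4, HSPH1 and BAG3, and the window of HSPH1 belongs to a start site other than that of its main transcript. A match is a string of letters, and binding of HSF1 was not measured.

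Total counts per sample were 34635770 to 36116963 in NC and 36033404 to 39850802 in OE. These are close to the paper's numbers of uniquely mapped read pairs, not of reads. NC replicate 2 had 26478 genes with a count, against 22094 to 22913 in the other samples. In the paper it also had the largest shares of intronic and intergenic reads. The deposited FPKM of *PPM1K* was 0.0833 ± 0.0404 (SD, n = 3) in NC, against 7.09 ± 0.350 (SD, n = 3) in OE. The log2 ratio fitted to its counts was 6.39 (SE, the standard error, 0.13, edgeR adjusted p = 1.1e-18). Of 10 markers of kidney epithelium all 10 had a mean count of at least 10, and the summed level of the list was 4203 to 4488 CPM (the count scaled to the library's size) in NC and 3290 to 3511 CPM in OE. The largest part of this sum was KRT8, with a mean of 2159 CPM in NC and 1543 CPM in OE. At an edgeR adjusted p under 0.05, 6 of the 10 were lower in OE and 3 were not called. The remaining 1, PAX8, was higher with a log2 fold change of 0.25. Among all tested genes 23.7% were lower and 24.9% higher. Of 10 markers of the mature proximal tubule only 4 reached a mean count of 10, and the sum over the whole list was 2.41 to 3.84 CPM in NC and 1.84 to 2.22 CPM in OE. LRP2 had 1 count in 1 sample, CUBN and AQP1 had at most 6 counts in any sample, and SLC22A6 and SLC22A8 had no row. The fibroblast list, 2 of 6 markers at that count, summed to 17.7 to 18.9 CPM in NC and 7.63 to 8.01 CPM in OE, and the endothelial list, 3 of 4, to 5.06 to 6.40 and 6.92 to 8.05 CPM. None of 4 leukocyte markers reached it, with sums of 0.403 to 0.526 CPM in NC and 0.0833 to 0.293 CPM in OE. Whether these shifts have a part in the results for the chaperones was not tested.

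Most of the 10 members, which were chosen with earlier results of these data known, had less RNA in the cells overexpressing *PPM1K*. With edgeR's quasi-likelihood test and Benjamini-Hochberg adjustment over all tested genes, 8 of the 10 members were lower at an adjusted p under 0.05 and none was higher. Among all tested genes 23.7% were lower and 24.9% higher by the same rule. The median log2 fold change was −0.55 over the members and −0.0032 over all tested genes. The falls ran from 15.6% for DNAJB1 to 49.2% for HSPA1A. None of the 10 also passed a fold change of 2, which 5.51% of the tested genes did. In CPM every OE sample lay below every NC sample for 9 members, against 27.1% of tested genes, and for HSPA4 every OE sample lay above.

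**Figure D1:**
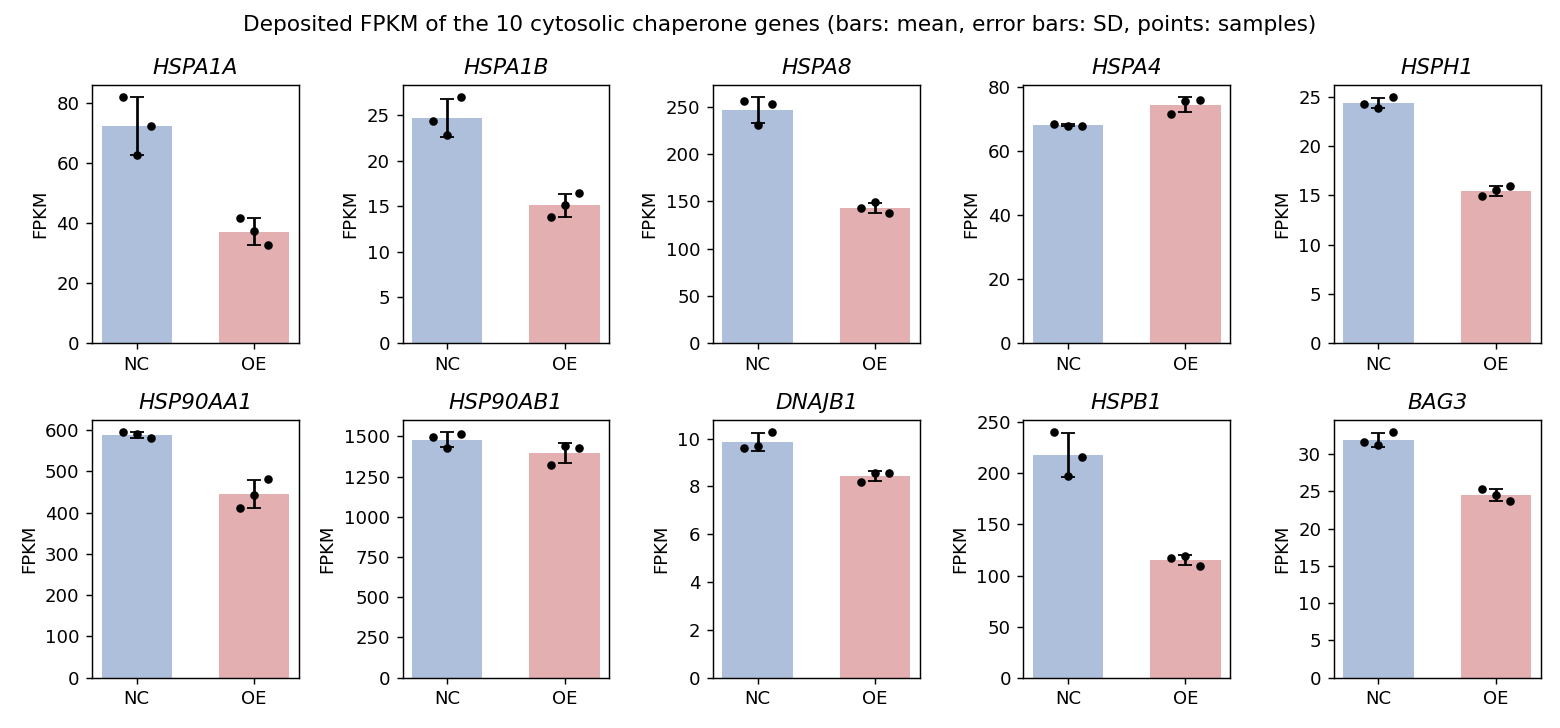
Deposited FPKM (y axis, from 0, a scale of its own in each panel) of the 10 chaperone genes in NC and OE; bars are means, error bars SD over 3 samples and points single samples. OE samples lie below all NC samples in 8 panels, above them for HSPA4 (71.62 or more against 68.41 or less), and overlap them for HSP90AB1.

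The inducible HSP70 genes and the constitutive one were all lower. HSPA1A and HSPA1B, which encode the stress-inducible HSP70, lie on the plus strand of chromosome 6, from 31815543 to 31817946 and from 31827738 to 31830254 (GENCODE release 44, GRCh38). The deposited FPKM of HSPA1A was 81.83, 62.46 and 72.24 in NC and 41.65, 37.22 and 32.46 in OE, with the replicates always given in the order 1, 2 and 3. Its fall was −0.98 on the log2 scale (SE 0.08, edgeR adjusted p = 4.7e-09), and its highest OE sample was well below its lowest NC sample. The FPKM of HSPA1B was 24.32, 22.81 and 26.96 in NC and 13.85, 15.08 and 16.40 in OE. Its groups were also apart, and the fitted log2 ratio was −0.73 (SE 0.07, edgeR adjusted p = 1.1e-08).

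The transcripts of HSPA1A and HSPA1B are near-identical over much of their length. Of all windows of 150 bases, the read length, 69.6% of the HSPA1A transcript were also found in HSPA1B, and 66.1% of the HSPA1B transcript in HSPA1A. The authors counted only uniquely mapped reads, so reads from these stretches could be lost or split, and the level of either gene alone is uncertain. With both rows added, the counts were 9632, 8040 and 9406 in NC and 5417, 5385 and 4578 in OE. Fitted as 1 gene, the sum had a log2 ratio of −0.91 (SE 0.07, edgeR adjusted p = 3.9e-10). No such window of the other 8 members was found in a transcript of another chaperone gene or its copies.

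HSPA8 encodes HSC70, the HSP70 that cells make without stress, and is on chromosome 11 from 123057489 to 123063230 (minus strand). Its FPKM was 255.89, 230.65 and 253.14 in NC and 142.77, 148.84 and 137.44 in OE. The samples within each group were close together and the groups far apart. The fall fitted to the counts was 42.8%, or −0.80 on the log2 scale (SE 0.05, edgeR adjusted p = 1.3e-10). In CPM the mean dropped by 555, from 1297 ± 57.6 (SD, n = 3) to 742 ± 34.7 (SD, n = 3).

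HSPA1A and HSPA1B made up 29.3%, 27.0% and 28.2% of the FPKM summed over the 3 genes in NC and 28.0%, 26.0% and 26.2% in OE. The mean share was 28.2% ± 1.16 (SD, n = 3) in NC, against 26.7% ± 1.09 (SD, n = 3) in OE. The groups overlapped, and an exact two-sided permutation test gave p = 0.2, where 0.1 is the smallest that 3 against 3 samples allow, so no difference could have passed a threshold of 0.05. The level of this share depends on the lengths behind the FPKM. HSPA8 has 4849 bases in merged exons and 2264 in its main transcript, against 2404 and 2400 for HSPA1A. Per kilobase of the main transcript, NC means were 573 CPM for HSPA8, 78.4 for HSPA1A and 26.8 for HSPA1B. Reads lost from the stretches common to HSPA1A and HSPA1B could also lower it.

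Of the genes of the HSP110 family, which act as exchange factors of HSP70, HSPH1 was lower and HSPA4 was not called. HSPH1, which encodes HSP105, is on chromosome 13 from 31134973 to 31162388 (minus strand). Its FPKM was 24.36, 23.94 and 25 in NC and 14.95, 15.56 and 15.93 in OE, with very little spread within the groups. Its log2 ratio was −0.68 (SE 0.05, edgeR adjusted p = 2.6e-10). HSPA4, which encodes APG-2 and is on chromosome 5 from 133052013 to 133106449 (plus strand), was the 1 member with a higher mean in OE.

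The FPKM of HSPA4 was 68.41, 67.69 and 67.87 in NC and 71.62, 75.41 and 75.99 in OE. All OE samples were above all NC samples, but the difference was small. Its log2 ratio was 0.11 (95% interval 0.02 to 0.20) with an edgeR adjusted p of 0.065, so the gene was not called. DESeq2, the tool of the study's methods, gave an adjusted p of 0.022 for it.

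**Figure D2:**
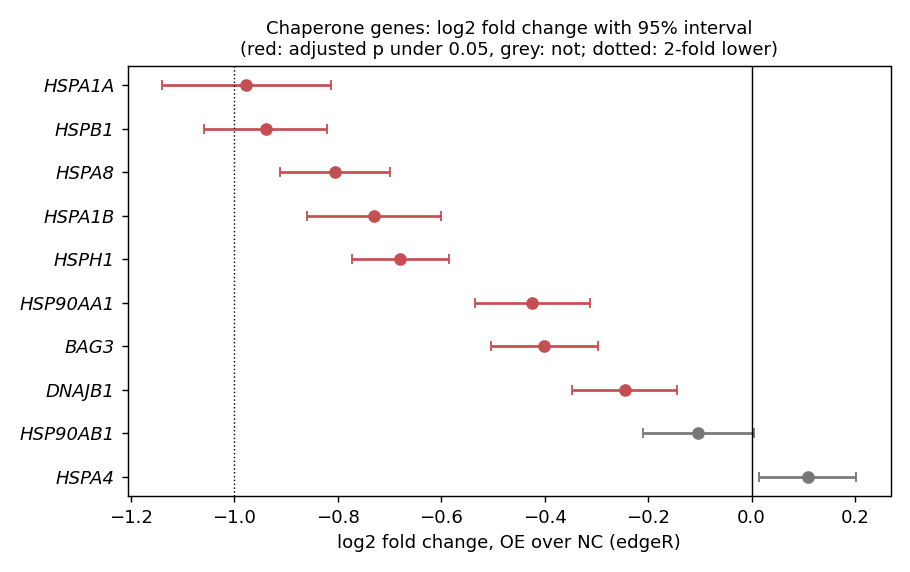
Log2 fold change of OE over NC (x axis) for each of the 10 chaperone genes (y axis, ordered by value); points are edgeR estimates, bars 95% intervals, red marks an adjusted p under 0.05 and the dotted line a 2-fold fall. The estimates run from −0.98 for HSPA1A to 0.11 for HSPA4, and HSP90AB1 and HSPA4 are grey.

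The HSP90 genes were the most abundant members. HSP90AA1 was lower in OE and HSP90AB1 was not called. HSP90AA1, the form raised by stress, is on chromosome 14 from 102080742 to 102139699 (minus strand), and HSP90AB1, the constitutive form, on chromosome 6 from 44246166 to 44253888 (plus strand). The FPKM of HSP90AA1 was 594.46, 589.11 and 580.03 in NC and 412.09, 441.50 and 480.48 in OE. The OE samples were more spread out than the NC samples but all lay below them. The fall fitted to the counts was 25.5%, or −0.42 on the log2 scale (SE 0.06, edgeR adjusted p = 2.7e-06). In CPM it dropped by 828, the most of the members, from 3252 ± 51.0 (SD, n = 3) to 2425 ± 153 (SD, n = 3).

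The FPKM of HSP90AB1 was 1497.91, 1427.53 and 1516.81 in NC and 1325.17, 1439.85 and 1430.61 in OE. In FPKM the groups overlapped, while in CPM each OE sample was below each NC sample. Its log2 ratio was −0.10 (95% interval −0.21 to 0.0048, edgeR adjusted p = 0.13), and the gene was not called. With upper quartile normalization in place of TMM the adjusted p was 0.044.

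HSP90AA1 made up less of the summed HSP90 level in every OE sample than in any NC sample. It was 28.4%, 29.2% and 27.7% of the FPKM of both genes in NC and 23.7%, 23.5% and 25.1% in OE. The mean share was 28.4% ± 0.775 (SD, n = 3) in NC, against 24.1% ± 0.903 (SD, n = 3) in OE, a difference of −4.32 percentage points. The exact two-sided permutation test gave p = 0.1, the smallest it can give here. The level of this share also depends on the lengths behind the FPKM. HSP90AA1 has 5097 bases in merged exons and 3228 in its main transcript, against 2980 and 2555 for HSP90AB1.

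**Figure D3:**
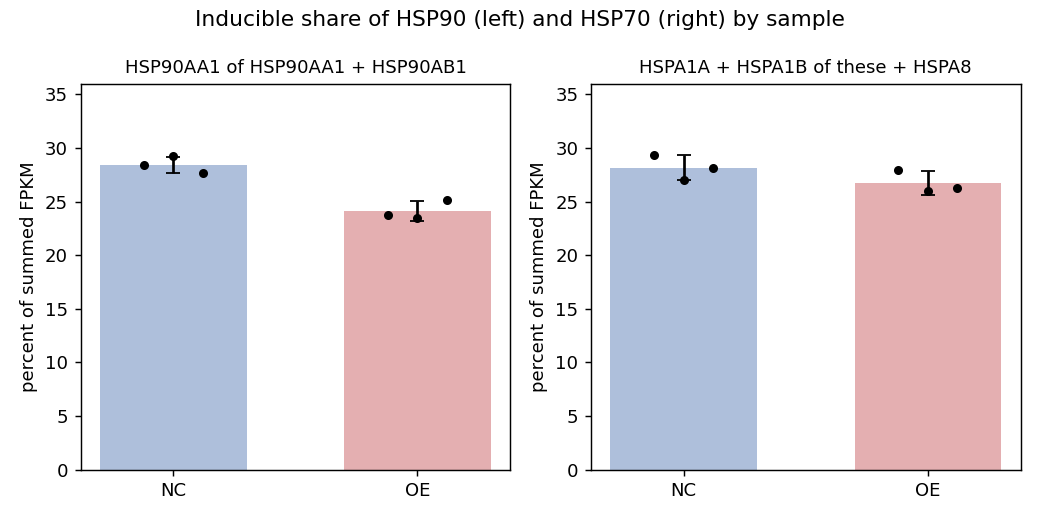
Percent of summed FPKM (y axis, from 0) taken by HSP90AA1 among both HSP90 genes (left) and by HSPA1A and HSPA1B among these and HSPA8 (right), in NC and OE; bars are means, error bars SD and points the 3 samples. On the left the OE samples (23.5% to 25.1%) lie below the NC samples (27.7% to 29.2%), and on the right the groups overlap. The level of each share depends on the lengths behind the FPKM.

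HSPB1, the small heat shock protein also known as HSP27, was also lower in OE. The gene is on chromosome 7 from 76302673 to 76304295 (plus strand). Its FPKM was 240.61, 197.87 and 216.41 in NC and 117.25, 119.11 and 109.55 in OE. The NC samples varied more than the OE samples, yet the lowest of them, NC replicate 2, was far above the highest OE sample. The fall fitted to the counts was 47.8%, or −0.94 on the log2 scale (SE 0.06, edgeR adjusted p = 5.9e-11). The log2 ratio was −0.87 without NC replicate 1 and −0.99 without NC replicate 2.

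BAG3 is an exchange factor of HSP70 that also binds small heat shock proteins and takes clients to autophagy. The gene is on chromosome 10 from 119651380 to 119677819 (plus strand). Its FPKM was 31.66, 31.22 and 32.99 in NC and 25.28, 24.57 and 23.77 in OE, so the groups were apart. The fitted log2 ratio was −0.40 (SE 0.05, edgeR adjusted p = 2.2e-06).

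DNAJB1, or HSP40, the J-domain partner of inducible HSP70, fell least among the called members. It is on chromosome 19 from 14514769 to 14560391 (minus strand). Its FPKM was 9.63, 9.68 and 10.28 in NC and 8.20, 8.58 and 8.55 in OE, close to each other but without overlap. Its log2 ratio was −0.25 (SE 0.05, edgeR adjusted p = 0.00047). DNAJB1 overlaps TECR on the other strand, and HSP90AA1 overlaps WDR20 in the same way, with mean counts of 1692 for TECR and 415 for WDR20. The lowest count in a sample was 2685 for DNAJB1 and 84294 for HSP90AA1. The libraries were stranded, but whether the counting used strand is not given in the sources used here. Where exons overlap, the counts of DNAJB1 could therefore hold reads of TECR, and those of HSP90AA1 reads of WDR20. Only whole gene spans, introns included, were compared, and overlap of exons was not tested.

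Per length, HSP90AB1 had the highest mean level in NC with an FPKM of 1481, followed by HSP90AA1 with 588, HSPA8 with 247 and HSPB1 with 218. HSPA8 and HSPB1 overlapped in NC but not in OE. HSPA1A with an FPKM of 72.2 and HSPA4 with 68.0 overlapped in NC, whereas in OE HSPA4, at 74.3, stood above HSPA1A, at 37.1, in all samples. BAG3, HSPA1B, HSPH1 and DNAJB1 followed, of which HSPA1B and HSPH1 overlapped in both groups. The lengths behind the deposited FPKM were close to those of all annotated exons of a gene merged, rather than of its main transcript. Worked out from the counts, their total and the FPKM, they came to 8820 bases for DNAJB1 and 1749 for HSPB1. These are estimates, since the total that the authors divided by is not given in the sources used here. The merged exons have 8188 bases for DNAJB1 and 1623 for HSPB1, and the main transcripts 2242 and 777. Per kilobase of the main transcript, DNAJB1 was 8th of the 10 in NC, with 39.1 ± 1.48 CPM (SD, n = 3), and not the lowest. The first 4 places were the same on both scales.

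All 10 members together took 1.09%, 1.08% and 1.08% of all counts in NC and 0.822%, 0.873% and 0.887% in OE. The mean was 1.08% ± 0.00509 (SD, n = 3) in NC, against 0.861% ± 0.0344 (SD, n = 3) in OE. The groups did not overlap, and the exact two-sided permutation test gave p = 0.1, its smallest value.

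Other genes of the cytosolic chaperone network moved in both directions. In 9 lists, written from textbook knowledge but with earlier results of these data known, 83 other genes were listed and 79 were tested. Of these, 19 were lower, 30 were higher and 30 were not called by the same rule, with a median log2 fold change of 0.05. The shares of called genes over all tested genes are those given above.

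Of the heat shock factors and their regulators, 2 of 5 genes were lower and 2 higher. HSF1, the factor behind the heat shock response, was higher in OE, from 48.7 ± 3.04 CPM (SD, n = 3) to 60.3 ± 2.10 CPM (SD, n = 3), or 0.31 on the log2 scale (edgeR adjusted p = 0.00017). HSBP1, a small protein that binds HSF1 and dampens it, was lower with a log2 fold change of −0.30 (edgeR adjusted p = 8.4e-05), and its paralog HSBP1L1 was higher with 0.38. HSF4, best known from the lens, was lower with −0.54 at a mean of 5.19 CPM in NC. HSF2 was not called, with a log2 fold change of −0.0089.

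Among 6 tested other HSP70 and HSP110 genes, 2 were lower and none higher, with a median log2 fold change of −0.43. HSPA12A, a distant relative of HSP70, fell from 65.2 ± 1.64 CPM (SD, n = 3) to 31.6 ± 1.11 CPM (SD, n = 3), or −1.05 on the log2 scale (edgeR adjusted p = 5.0e-12). HSPA2, an HSP70 best known from the testis, was lower by a log2 ratio of −0.79 (edgeR adjusted p = 1.1e-07). HSPA6, which is made almost only under stress, had 34, 20 and 27 counts in NC and 11, 20 and 22 in OE and was not called (log2 fold change −0.70, adjusted p = 0.11).

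Of the J-domain proteins other than DNAJB1, more were higher than lower. Of 17 tested, 11 were higher and 3 lower, with a median log2 fold change of 0.21. Without OE replicate 2, 7 were higher, and with limma on log2(FPKM + 1) without a filter 6 were. DNAJC17, a nuclear protein, rose by 0.59 on the log2 scale (edgeR adjusted p = 4.8e-08), DNAJB6, which holds back protein aggregation, by 0.35 and DNAJA2, a co-chaperone of HSC70, by 0.30. The lower ones were DNAJC6, an auxilin that uncoats clathrin vesicles, with −1.30, and DNAJB4 and DNAJB5, relatives of DNAJB1, with −0.31 each. DNAJC6 was at a mean of 8.85 CPM in NC and 3.59 CPM in OE.

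Of 8 other exchange factors and co-chaperones of HSP70, 1 was lower and 2 were higher. BAG1 had a log2 fold change of −0.20 (not called without NC replicate 1), while HSPBP1 had 0.48 (edgeR adjusted p = 1.2e-05) and BAG5 had 0.25 (also not called without that sample). Of 16 co-chaperones of HSP90, 3 were lower and 3 higher. The higher ones were 5 with DESeq2 and also without OE replicate 3. UNC45A, which helps myosin to fold, had −0.48 (edgeR adjusted p = 2.6e-07), STIP1, which links HSP70 to HSP90, had −0.18 and the phosphatase gene PPP5C had −0.17 (not called without NC replicate 1). CHORDC1 had 0.36, FKBP5, an immunophilin of steroid receptor complexes, had 0.34 and PTGES3, which encodes p23, had 0.26.

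Small heat shock proteins other than HSPB1 were split, with 2 of 4 tested genes lower and 2 higher. CRYAB, which encodes alpha-B crystallin, was lower with a log2 ratio of −0.40 (edgeR adjusted p = 7.9e-05), and HSPB2 had −0.90 at a mean of 2.11 CPM in NC. HSPB8, the partner of BAG3, had 0.43 (edgeR adjusted p = 0.00016), and HSPB6 had 0.93 at a mean of 0.961 CPM in OE. HSPB6 was not called by DESeq2, nor without NC replicate 3 or OE replicate 3.

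The chaperonin TRiC and its helper prefoldin, which fold actin and tubulin, had members in both directions. Of 8 TRiC subunits 3 were higher, namely CCT2 with a log2 fold change of 0.35 (edgeR adjusted p = 4.8e-06), CCT5 with 0.19 and CCT7 with 0.14, and CCT4 was lower with −0.18. CCT7 was not called without NC replicate 1, NC replicate 3 or OE replicate 2, and CCT4 was not called without NC replicate 3. Of 6 prefoldin subunits, PFDN2 with 0.69 (edgeR adjusted p = 6.2e-09), PFDN6 with 0.34 and PFDN1 with 0.23 were higher, and PFDN4 with −0.31 and PFDN5 with −0.27 were lower.

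Other genes known as targets of HSF1, several of which are in the lists above, were found in both directions. Of 19 tested, 5 were lower and 6 higher, with a median log2 fold change of 0.02. The lowest p among the lower ones were those of HSPE1, the mitochondrial co-chaperonin, with −0.41 (edgeR adjusted p = 3.1e-06), SERPINH1, the collagen chaperone, with −0.40, and CRYAB. Among the higher ones were CHORDC1 and ZFAND2A, an adaptor of the proteasome, with 0.56 (edgeR adjusted p = 9.0e-05).

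**Figure D4:**
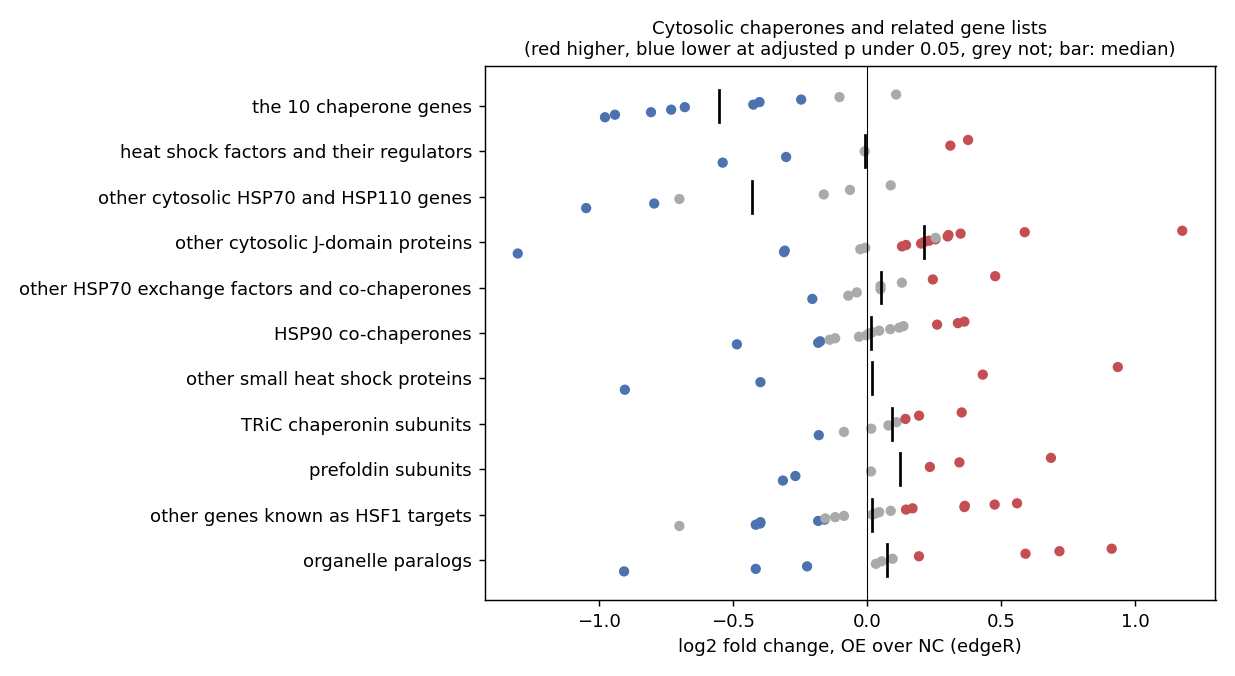
Log2 fold change of OE over NC (x axis) for every tested gene of the 10 chaperone genes and of 10 related lists (rows); points are genes, blue lower and red higher at an adjusted p under 0.05 from edgeR, grey not called, and black bars medians. The median of the chaperone genes is −0.55 and that of the J-domain list 0.21.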

How the data were processed

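RNA of 6 HK-2 samples, 3 NC and 3 OE, was read in pairs of 150 bases from stranded mRNA libraries. The authors trimmed the reads, used HISAT2 to align them to GRCh38, and kept reads with 1 mapping place for the gene counts. The submitters' processing notes also list mm10. The deposited count table holds these counts without normalization. The deposited FPKM values were computed by the authors from the same reads and are rounded to 2 decimals. The counting program, its strand setting and the annotation release are not given in the sources used here. Positions and lengths came from GENCODE release 44 on GRCh38, in which 99.8% of the identifiers were present once versions were dropped.

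The counts were tested with edgeR 4.0.16 in R 4.3.3 (filterByExpr, TMM, glmQLFit, then glmQLFTest). The Benjamini-Hochberg adjustment ran over 15878 genes. CPM came from the same fit, except for the marker sums, which were scaled to the total counts without TMM or the filter. Standard errors were the log2 fold change over the root of F. The total counts give a small counting error for all members, the least counted of which had 1399 in a sample. DESeq2 1.42.0, limma 3.58.1 on log2(FPKM + 1) and log2(FPKM + 0.1), other normalizations and filters, the replicate number as a block and each sample left out in turn were alternatives. The fits were tested on simulated data. Replicates were not copies of one library, with a mean chi-square per gene between 5.17 and 11.9 for pairs within a group. The members, gene lists and markers were chosen with earlier results of these data known. The genes named from each list were up to 3 in each direction with the smallest adjusted p under 0.05, of which 1 is not reported here. HSF2, HSPA6 and the markers KRT8, PAX8, LRP2, CUBN, AQP1, SLC22A6 and SLC22A8 were named after their values were seen. Promoter windows were RefSeq's on GRCh38.p14. Python 3.11.15, pandas 2.3.3 and matplotlib 3.10.9 were used.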

Additional observations from a re-analysis of the deposited data

How the results depend on the processing

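The 8 chaperone genes called lower were 8 in 14 of 15 alternatives and 9 with upper quartile normalization, which added HSP90AB1. The number called higher was 0 in the main analysis and 1, HSPA4, with DESeq2 and with all 3 limma fits on FPKM. HSPA1A stayed on the same side of the adjusted p in all 15, and its log2 fold change passed 2-fold with upper quartile normalization (−1.01), without NC replicate 2 (−1.06) and without OE replicate 1 (−1.07). Same-numbered samples of the groups did not deviate together (mean correlation −0.0413, with 0 of 6 samples closest to their own number). With the replicate number as a block 8 members were lower and 0 higher, and 877 genes passed the adjusted p and 2-fold, against 875 without it. On FPKM with limma that number was 125 with log2(FPKM + 1), 123 without a filter and 273 with log2(FPKM + 0.1), and the cause was not tested. In counts in place of FPKM the HSP90AA1 share fell by 5.25 percentage points in place of 4.32, since HSP90AA1 has the longer length in the FPKM. The share of the 10 genes fell by 0.138 percentage points of the summed FPKM in place of 0.220 of the counts. With a sample left out, the HSP90AA1 difference was −4.83 to −3.93 percentage points and that of the HSP70 share −2.04 to −0.833. Of the 43 called genes that the naming rule took from the lists, 37 were called in the same direction wherever they were tested. BAG1 and BAG5 were not called without NC replicate 1 (adjusted p 0.056 and 0.069 from edgeR), nor PPP5C (0.10), CCT4 was not called without NC replicate 3 (0.10), HSPB6 not without NC replicate 3 or OE replicate 3 (0.054 and 0.069), and CCT7 not without NC replicate 1, NC replicate 3 or OE replicate 2 (0.051, 0.073 and 0.16) nor with the block (0.089). HSPB6 was also not called with DESeq2 (0.063). With limma on FPKM, PPP5C was not called (0.059 with log2(FPKM + 0.1), 0.058 with log2(FPKM + 1) and 0.16 without a filter), and without a filter neither were BAG1 (0.11), BAG5 (0.11), CCT4 (0.12) and CCT7 (0.061), which was also not called with upper quartile normalization (0.10). Higher J-domain genes numbered 11, and 6 to 11 over the alternatives. Higher co-chaperones of HSP90 numbered 3, and 5 with DESeq2 and without OE replicate 3. HSF2, which was not called, changed sign with limma (0.0115 with log2(FPKM + 0.1), 0.0105 with log2(FPKM + 1), with and without a filter) and with samples left out (−0.0402 without NC replicate 3 to 0.0195 without OE replicate 1). Counting error is larger for list genes with few counts, such as HSPB6, than for the 10 chaperone genes.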

Other observations

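The relatives of these chaperones in other compartments moved in both directions. By the edgeR adjusted p used above, 4 of 10 tested were higher and 3 lower, against 24.9% and 23.7% of all tested genes. HSPA9, the mitochondrial HSP70, rose from 807 ± 23.4 CPM (SD, n = 3) in NC to 1518 ± 3.09 CPM (SD, n = 3) in OE, or 0.91 on the log2 scale (edgeR adjusted p = 5.6e-12), while its partner DNAJA3 had 0.59 and the endoplasmic reticulum J-domain gene DNAJB9 had 0.72. HSP90B1, the HSP90 of the endoplasmic reticulum, fell from 3716 ± 55.3 CPM (SD, n = 3) to 1984 ± 64.6 CPM (SD, n = 3), or −0.91 on the log2 scale (edgeR adjusted p = 1.5e-11), and HSPA5, the HSP70 of that compartment, had −0.22.

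Within OE the near-identical genes HSPA1A and HSPA1B were ordered in opposite ways, a pattern seen only after the values were known. HSPA1A had 108.8, 95.6 and 82.4 CPM in OE replicates 1, 2 and 3, and HSPA1B had 37.9, 40.6 and 43.6 CPM. The cause was not tested.

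Processed copies took few reads. HSP90AB3P had a mean of 127 counts, HSP90AA2P of 25.7, HSP90AB2P of 19.8 and HSPA8P5 of 13.7. The copies of HSPA8, HSP90AA1, HSP90AB1, HSPB1 and DNAJB1 together came to at most 0.132% of the counts of their parent gene in any sample.

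The tested genes outside the members whose log2 CPM over the 6 samples was most like that of HSPA1A were SNRNP70 (Pearson's r 0.9996), KARS1 (0.9971), C1orf21 (0.9970), PPIC (0.9959) and NEU1 (0.9954), which like HSPA1A is on chromosome 6. The named genes were picked as the highest of 15868. With 6 samples in 2 groups a high r is common, and 5.49% of these genes had an r above 0.95. Among the members r with HSPA1A was 0.987 for HSPB1, 0.977 for HSPA8 and −0.980 for HSPA4. For the other members it ran from 0.758 for HSP90AB1 to 0.969 for BAG3, with 0.902 for HSPA1B.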
